A study of Mus musculus with 9 samples.

Results

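The circadian clock genes Arntl, Clock, Npas2, Per1, Per2, Per3, Cry1, Cry2, Nr1d1 and Dbp were followed through the cell classes of the mouse heart after ischemia and reperfusion. They were chosen by name, as core members of the clock loop and its outputs, and are 10 of the 32285 genes in the count matrices. The question was whether clock genes moved alike in all classes of a heart, as a difference in time of day between hearts or an effect of injury on the whole heart would have it. RNA of single nuclei was sequenced in 9 libraries from hearts of male wild-type (WT) mice aged 9 to 10 weeks. Each library is called a heart here, although the labels do not say whether it came from 1 mouse or from pooled tissue, so the spread between replicates may be partly technical. In the NS-Sham group (3 hearts) the chest was opened without occlusion and the mice received normal saline (NS). In the NS-I/R group (3 hearts) the left anterior descending coronary artery was occluded for 45 min and reperfused for 24 h under saline. In the Enpa-I/R group (3 hearts) the same injury was given with enpatoran, an antagonist of the RNA sensor TLR7, injected intraperitoneally at 5 mg/kg per dose from 1 h before occlusion. The labels give the second dose once as 2 h after the first and once as directly after ischemia, and no sham heart received enpatoran. No label gives the clock time of surgery or of tissue collection, nor a batch or date, so time of day and group cannot be told apart by design.

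In most mammalian cells, ARNTL (BMAL1) pairs with CLOCK or its relative NPAS2 to switch on genes with E-box elements in their promoters, among them the Per and Cry genes, Nr1d1 and Dbp. The PER and CRY proteins then enter the nucleus and repress that pair, while NR1D1 (REV-ERB alpha) represses Arntl in a second loop. DBP, a factor that binds D-box elements, passes the rhythm on to output genes, and the heart's own clock shapes its daily rhythms of metabolism and excitability.

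Stretches of 5 members' promoters are printed here because they hold, upstream of the start, letters of elements known from this loop. The RefSeq promoter table (GRCm38.p6, 250 bases before to 50 after each start) held 9 of the 10 members. The letters searched on both strands were the E-box CACGTG, the E-prime box CACGTT, the D-box TTATGTAA or TTACGTAA, the cAMP element TGACGTCA, and the Rev-erb/ROR and glucocorticoid elements, given by name alone. No match in a member overlapped another. Sequences run 5′ to 3′ on the gene's strand, and capitals mark an E-box (CACGTG), an E-prime box read on the other strand (AACGTG) or a D-box (TTATGTAA).
Cry1 (chr10:85185079-85185163, minus strand): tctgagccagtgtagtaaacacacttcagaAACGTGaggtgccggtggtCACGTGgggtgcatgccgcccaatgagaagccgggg
Cry2 (chr2:92434200-92434265, minus strand): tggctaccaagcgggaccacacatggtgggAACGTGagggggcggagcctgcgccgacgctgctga
Per1 (chr11:69098753-69098818, plus strand): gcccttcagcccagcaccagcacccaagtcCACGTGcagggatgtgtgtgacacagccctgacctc
Per3 (chr4:151044786-151044900, minus strand): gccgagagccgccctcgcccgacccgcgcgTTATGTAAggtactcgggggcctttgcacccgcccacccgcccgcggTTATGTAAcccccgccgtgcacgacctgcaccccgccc
Nr1d1 (chr11:98775378-98775435, minus strand): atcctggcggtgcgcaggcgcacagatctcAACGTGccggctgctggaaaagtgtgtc
Cry1 held an E-box and an E-prime box 60 and 79 bases before its start, and Per1 held an E-box 166 bases before its start. Cry2 and Nr1d1 each held an E-prime box, 166 and 28 bases before the start. Per3 held 2 D-boxes, 205 and 158 bases before the start, and was the only one of the 9 with this element. A Rev-erb/ROR element lay just past the start of Arntl. Clock, Npas2 and Dbp held none of the letters searched. Of all 32851 promoters in the table, 7.15% held the E-box, 4.68% the E-prime box, 1.06% the D-box and 2.45% the Rev-erb/ROR element. The cAMP element (1.79% of all promoters) and the glucocorticoid element (0.00913%) were in none of the 9. These are matches of letters in a window, not binding sites.

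The matrices held 19651794 to 38970152 UMIs (molecule counts from unique barcodes) per library, and 41979 of 56766 barcodes were kept as nuclei. Any pair of libraries shared 5 to 20 barcodes. Nuclei were clustered without the clock genes, and clusters were called "X-like" from marker genes, because the study's own annotation was not used here. Each class stood out by its own markers: the summed level of 10 cardiomyocyte markers, for example, was 44365 to 73624 CPM (UMIs of a gene scaled to a common total per library and class) in cardiomyocyte-like nuclei and at most 12137 CPM in any other class. The same markers named the clusters, so this describes the classes and is no independent check of their names. UMIs were summed per library and class, so the unit of comparison is the heart and n = 3 per group. Levels below are CPM after TMM scaling and are listed for replicates 1, 2 and 3 in that order. Changes are log2 fold changes ± SE from edgeR's quasi-likelihood test, adjusted by Benjamini-Hochberg over all genes tested in that class, and "rose" or "fell" means an adjusted p under 0.05. NS-I/R replicate 3 stood apart from the other NS-I/R hearts in many genes, and NS-Sham replicate 2 differed from the other shams in several clock genes. Both are described below and results are given with and without them where it matters.

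After I/R under saline, Dbp fell in 5 of 6 classes tested and Per3 in 6 of 7, Cry1 and Cry2 rose in 4 of 7 each, and Arntl rose in 2 classes and fell in 1. In 7 classes with enough nuclei in every heart, 65 member-by-class tests were possible, and 35 of them passed in NS-I/R minus NS-Sham, 18 higher and 17 lower. Over all genes in the same fits, 33.8% of tests passed, 17.2% higher and 16.6% lower, so changes were common in this comparison. All 10 members changed in cardiomyocyte-like nuclei (45.3% of all genes tested there), 6 higher (23.6% of genes) and 4 lower (21.6%). The count was 6 of 10 in each of the endothelial-like (35.2% of genes), fibroblast-like (46.7%) and pericyte-like classes (24.6%). In turn, 5 of 9 changed in macrophage-like nuclei (34.9%), 1 of 9 in smooth muscle-like (6.72%) and 1 of 7 in lymphatic endothelial-like nuclei (13.8%). The total of 35 calls became 21 when NS-Sham replicate 2 or replicate 3 was left out, 22 when NS-I/R replicate 1 and 23 when NS-I/R replicate 2 was. It became 42 when NS-I/R replicate 3 was left out. The share of all genes called moved likewise. In cardiomyocyte-like nuclei it was 33.4% to 36.0% without one of the other hearts named here and 56.6% without NS-I/R replicate 3.

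**Figure D1:**
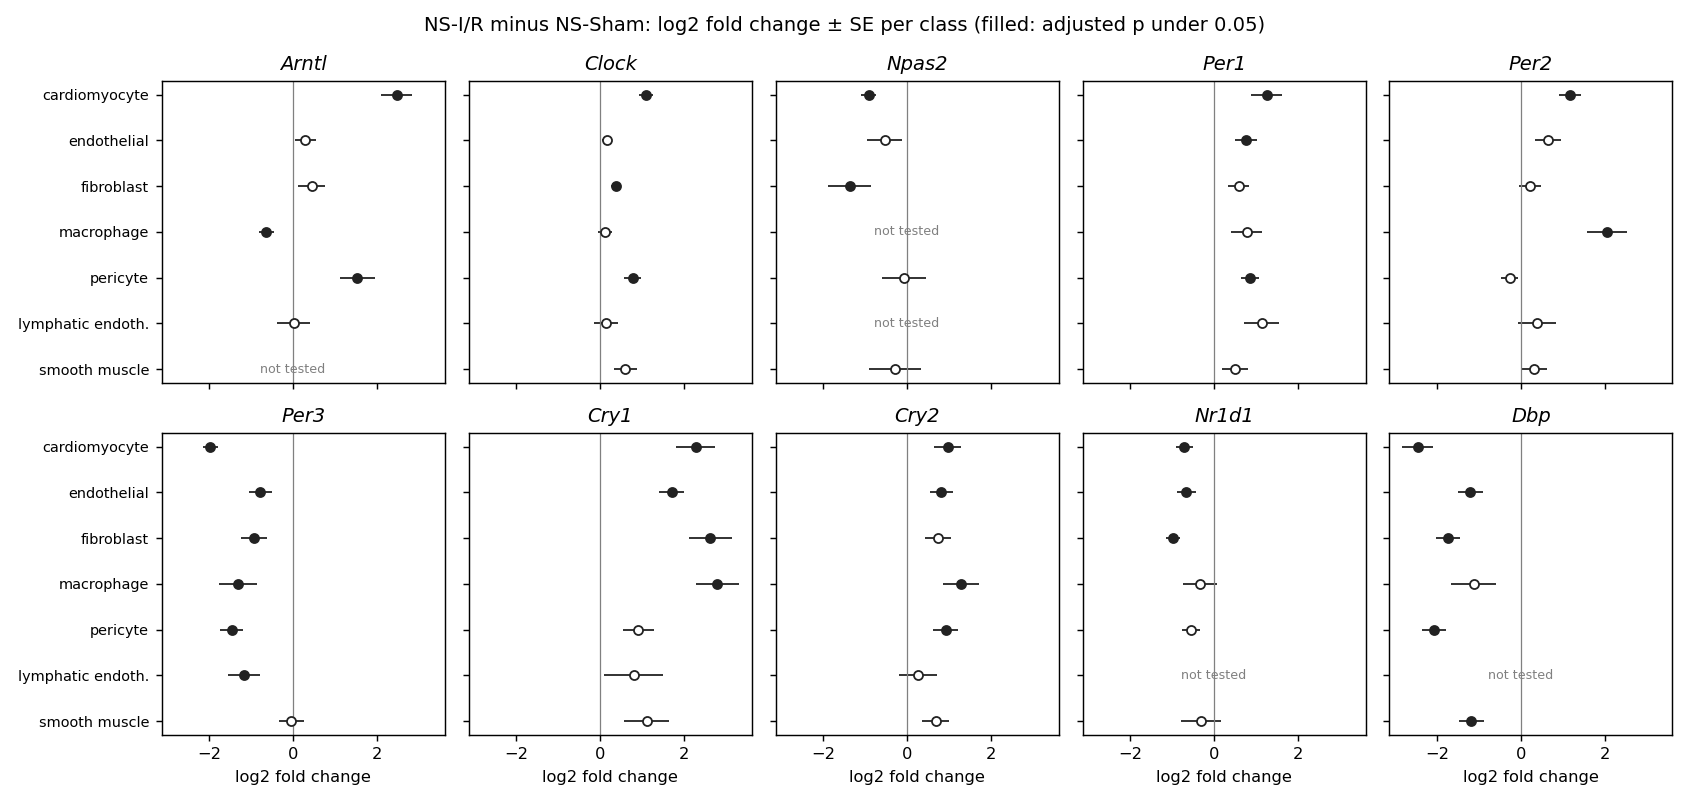
Log2 fold change (x axis) of each clock gene in NS-I/R minus NS-Sham, by cell class (y axis), with bars of 1 SE from the edgeR fit of 9 libraries; filled points passed an adjusted p of 0.05. Dbp and Per3 lie left of 0 and Cry1, Cry2 and Per1 right of 0 in every class tested, while Arntl runs from -0.64 in macrophage-like to 2.47 in cardiomyocyte-like nuclei.

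Of the activating limb, Arntl showed the widest spread over classes. In cardiomyocyte-like nuclei Arntl stood at 25.6, 16.1 and 17.2 CPM in NS-Sham, at 159.6, 115.7 and 49.0 CPM in NS-I/R and at 38.7, 40.6 and 40.4 CPM in Enpa-I/R. The 3 groups did not overlap, with NS-I/R highest. The difference between NS-I/R and NS-Sham was 2.47 ± 0.36 (adjusted p = 0.000497). In macrophage-like nuclei Arntl went the other way: it stood at 198.5, 168.2 and 180.3 CPM in NS-Sham and at 110.8, 120.3 and 119.0 CPM in NS-I/R, a difference of -0.64 ± 0.17 (adjusted p = 0.0103). In pericyte-like nuclei Arntl rose from 34.0, 10.4 and 26.7 CPM to 69.4, 73.5 and 46.1 CPM, a difference of 1.53 ± 0.41 (adjusted p = 0.0116). Without NS-Sham replicate 2, the low one, the pericyte-like difference was 1.01 and no longer passed. In endothelial-like, fibroblast-like and lymphatic endothelial-like nuclei the differences were 0.29, 0.45 and 0.01 and did not pass. Gm45355, which overlaps Arntl on the opposite strand, had group means of at most 0.0839 CPM in NS-I/R and NS-Sham.

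Clock, the constant partner of ARNTL, was higher in cardiomyocyte-like nuclei, at 202.9, 200.2 and 134.0 CPM in NS-I/R against 88.2, 75.7 and 86.3 CPM in NS-Sham. That difference was 1.10 ± 0.16 (adjusted p = 0.000485), and the groups did not overlap. Clock also rose in pericyte-like (0.78) and fibroblast-like nuclei (0.37), where the calls were lost without NS-Sham replicate 2, at 0.74 and 0.26. The pericyte-like call was also lost without NS-Sham replicate 3 (0.69), and the fibroblast-like one without NS-I/R replicate 1 (0.32). Clock did not pass in smooth muscle-like (0.60), endothelial-like (0.17), lymphatic endothelial-like (0.15) or macrophage-like nuclei (0.12). Npas2 fell instead. In cardiomyocyte-like nuclei Npas2 went from 75.3, 82.5 and 84.5 CPM to 54.6, 33.9 and 40.3 CPM, a difference of -0.91 ± 0.18 (adjusted p = 0.00280). In fibroblast-like nuclei it was at 184.7, 44.8 and 121.5 CPM in NS-Sham and at 23.1, 24.3 and 84.9 CPM in NS-I/R, and the groups overlapped. The fall there (-1.37 ± 0.51, adjusted p = 0.0452) was lost in 10 of 18 alternative fits and reached -0.39 within the largest shared fibroblast-like cluster. Npas2 did not pass in endothelial-like (-0.53), smooth muscle-like (-0.28) or pericyte-like nuclei (-0.07). In lymphatic endothelial-like nuclei, too few reads for a test, Npas2 had 3, 5 and 4 UMIs in the NS-Sham hearts and none in the NS-I/R hearts. Outside the cardiomyocyte-like class the Npas2 level may include RNA from elsewhere. Cardiomyocyte markers stood at 3.15% to 17.5% of their cardiomyocyte-like level in other classes. That share of the cardiomyocyte-like Npas2 level came to a median of 26.7% of the Npas2 measured there. The same median was 4.09% to 6.41% for the other 9 members, but some classes and groups lay well above it, up to 43.8% for Arntl. In macrophage-like nuclei that share, in CPM before TMM scaling, made up 5.85 of 24.1 for Per3 in NS-Sham and 1.07 of 10.7 in NS-I/R. For Dbp in the same class it made up 4.35 of 14.5 in NS-Sham and 0.531 of 6.93 in NS-I/R. For Npas2 in fibroblast-like nuclei it made up 4.90 of 109 in NS-Sham and 1.83 of 46.0 in NS-I/R. How much of the differences between groups came from such RNA was not tested.

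Among the repressors, Cry1 had the largest rises. In cardiomyocyte-like nuclei Cry1 stood at 7.91, 11.8 and 8.25 CPM in NS-Sham and at 61.1, 63.1 and 13.3 CPM in NS-I/R. In fibroblast-like nuclei it stood at 7.40, 13.3 and 3.60 CPM in NS-Sham and at 70.7, 81.0 and 17.8 CPM in NS-I/R. In macrophage-like nuclei it stood at 9.92, 6.89 and 13.3 CPM and then at 75.9, 95.5 and 24.3 CPM. The groups did not overlap in these classes, although NS-I/R replicate 3 was far below its group in each. The differences were 2.28 ± 0.47 (adjusted p = 0.00331) in cardiomyocyte-like, 2.64 ± 0.52 (0.00145) in fibroblast-like, 2.80 ± 0.52 (0.000632) in macrophage-like and 1.71 ± 0.29 (0.000669) in endothelial-like nuclei, by the same adjusted edgeR test. These 4 calls held in all 18 alternative fits. In pericyte-like, smooth muscle-like and lymphatic endothelial-like nuclei Cry1 was higher by 0.91, 1.11 and 0.80 without passing.

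Cry2, the other cryptochrome, showed smaller differences of one direction. In pericyte-like nuclei Cry2 stood at 90.7, 99.8 and 108.7 CPM in NS-Sham and at 244.3, 250.4 and 73.4 CPM in NS-I/R. In fibroblast-like nuclei it stood at 67.0, 69.5 and 72.6 CPM and then at 151.2, 150.2 and 50.1 CPM. In both classes NS-I/R replicates 1 and 2 were above every sham and replicate 3 was below every sham. Cry2 rose in macrophage-like (1.29), cardiomyocyte-like (0.97), pericyte-like (0.92) and endothelial-like nuclei (0.82), and did not pass in fibroblast-like (0.75), smooth muscle-like (0.69) or lymphatic endothelial-like nuclei (0.26). Each of the calls was lost when NS-I/R replicate 1 (0.64 to 1.10) or NS-I/R replicate 2 (0.66 to 1.05) was left out, and each was lost on leaving out NS-Sham replicate 1 (0.63 to 1.40). Leaving out NS-Sham replicate 2 or NS-Sham replicate 3 also ended the calls in macrophage-like (1.21 and 1.27), cardiomyocyte-like (1.02 and 1.02) and pericyte-like nuclei (0.91 and 0.96), and the pericyte-like call was lost without Enpa-I/R replicate 1 or 3 as well (0.91 each). Without NS-I/R replicate 3, Cry2 passed in 6 of 7 classes, with differences of 1.00 to 1.70 in those 6. That heart was the lowest of its group for Cry2 in all 7 classes, so leaving it out raises the difference by construction. Over the 7 classes 13.9% to 57.0% of all genes passed in that fit. D930015M05Rik, on the opposite strand over Cry2, had group means of at most 4.68 CPM in NS-I/R and NS-Sham.

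Per1, a Period gene that also responds acutely to hormones and stress signals, rose in cardiomyocyte-like (1.26 ± 0.36, adjusted p = 0.0172), pericyte-like (0.86 ± 0.22, 0.00796) and endothelial-like nuclei (0.77 ± 0.27, 0.0413). In cardiomyocyte-like nuclei Per1 stood at 65.1, 47.7 and 35.7 CPM in NS-Sham and at 154.2, 143.0 and 57.8 CPM in NS-I/R, and the groups overlapped through NS-I/R replicate 3. That call was lost on leaving out NS-Sham replicate 2 (1.23) or 3 (1.07), or NS-I/R replicate 1 (1.03) or 2 (1.10). The pericyte-like one was lost without NS-Sham replicate 1 (0.72). The endothelial-like one was lost in 11 of 18 alternative fits. Per1 did not pass in lymphatic endothelial-like (1.14), macrophage-like (0.78), fibroblast-like (0.60) or smooth muscle-like nuclei (0.50). Without NS-I/R replicate 3, Per1 passed in all 7 classes, higher by 0.80 to 1.58. That heart was the lowest of its group for Per1 in all 7 classes, so leaving it out raises the difference by construction. In those fits 13.9% (smooth muscle-like) to 57.0% (fibroblast-like) of all genes passed.

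Per2 rose in macrophage-like and cardiomyocyte-like nuclei. In macrophage-like nuclei Per2 stood at 13.2, 16.7 and 15.9 CPM in NS-Sham and at 97.7, 76.4 and 22.7 CPM in NS-I/R, a difference of 2.07 ± 0.48 (adjusted p = 0.00333) that held in all 18 alternative fits. In cardiomyocyte-like nuclei it stood at 25.3, 41.3 and 29.3 CPM and then at 92.4, 79.9 and 45.3 CPM, a difference of 1.17 ± 0.26 (adjusted p = 0.00465). The groups did not overlap in either class. In pericyte-like nuclei Per2 was at 136.1, 229.4 and 171.0 CPM in NS-Sham and at 164.9, 168.9 and 121.6 CPM in NS-I/R, which overlap, and the difference was -0.26. Neither that nor the differences of Per2 in endothelial-like (0.65), lymphatic endothelial-like (0.39), smooth muscle-like (0.32) and fibroblast-like nuclei (0.23) passed.

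Per3, the third Period gene, fell in 6 of 7 classes. Among them were fibroblast-like and lymphatic endothelial-like nuclei, where neither Per1 nor Per2 passed. In cardiomyocyte-like nuclei Per3 stood at 56.1, 94.2 and 77.8 CPM in NS-Sham, at 19.2, 19.4 and 19.3 CPM in NS-I/R and at 28.6, 27.4 and 27.5 CPM in Enpa-I/R. The spread within each I/R group was small and the 3 groups did not overlap. The difference between NS-I/R and NS-Sham was -1.98 ± 0.18 (adjusted p = 3.88e-05). In pericyte-like nuclei it went from 93.2, 151.0 and 124.7 CPM to 43.4, 55.1 and 36.7 CPM, a difference of -1.46 ± 0.27 (adjusted p = 0.000749). Those 2 calls held in all 18 alternative fits. Per3 also fell in macrophage-like (-1.31), lymphatic endothelial-like (-1.17), fibroblast-like (-0.93) and endothelial-like nuclei (-0.78), each of which lost its call without NS-Sham replicate 2 (-0.89, -1.12, -0.58 and -0.56) and without NS-Sham replicate 3 (-1.36, -1.06, -0.96 and -0.76). Some lost it without an NS-I/R heart as well: macrophage-like without replicate 1 (-1.43) or 3 (-0.94), endothelial-like without replicate 2 (-0.85) or 3 (-0.57), and lymphatic endothelial-like without any of the 3 (-1.13, -1.23 and -1.15). In smooth muscle-like nuclei Per3 stood at 83.3, 126.5 and 85.6 CPM in NS-Sham and at 107.0, 112.0 and 71.9 CPM in NS-I/R, a difference of -0.04 ± 0.30. Camta1 overlaps Per3 on the same strand and rose in pericyte-like (1.74), fibroblast-like (0.83) and endothelial-like nuclei (0.80), and did not pass in cardiomyocyte-like nuclei (0.20). Its group means in cardiomyocyte-like nuclei were 855 CPM in NS-Sham and 983 CPM in NS-I/R, far above those of Per3. Strand alone cannot separate reads of both genes where they overlap.

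Nr1d1, which encodes the repressor of the second loop, fell in fibroblast-like, cardiomyocyte-like and endothelial-like nuclei. In fibroblast-like nuclei Nr1d1 stood at 93.8, 134.8 and 137.9 CPM in NS-Sham, at 70.2, 62.4 and 54.9 CPM in NS-I/R and at 41.4, 37.4 and 45.9 CPM in Enpa-I/R. The 3 groups did not overlap, and the difference between NS-I/R and NS-Sham was -0.97 ± 0.16 (adjusted p = 0.000517), a call that held in all 18 alternative fits. The differences were -0.70 ± 0.20 in cardiomyocyte-like and -0.65 ± 0.22 in endothelial-like nuclei. Both calls were lost on leaving out NS-Sham replicate 3 (-0.56 and -0.58) or NS-I/R replicate 1 (-0.65 and -0.58) or 2 (-0.57 and -0.69), and the endothelial-like one also with NS-Sham replicate 2 gone (-0.56). Within the largest shared cluster neither passed, and the endothelial-like difference came down to -0.31 (adjusted p = 0.568; -0.78 in cardiomyocyte-like nuclei). Nr1d1 did not pass in pericyte-like (-0.54), macrophage-like (-0.34) or smooth muscle-like nuclei (-0.30). Thra, a thyroid hormone receptor gene that overlaps the end of Nr1d1 on the opposite strand, fell in 6 of 7 classes, by 1.21 on the log2 scale in fibroblast-like nuclei. Because the strand setting of the counting is not given in the sources used here, it is not known whether reads of Nr1d1 and Thra were kept apart.

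Dbp, the output factor, fell in 5 of the 6 classes tested. In cardiomyocyte-like nuclei Dbp stood at 39.7, 54.3 and 72.2 CPM in NS-Sham, at 5.9955, 6.95 and 17.4 CPM in NS-I/R and at 11.7, 10.9 and 10.1 CPM in Enpa-I/R. In pericyte-like nuclei it stood at 84.4, 134.8 and 158.6 CPM, at 27.3, 31.0 and 30.4 CPM and at 44.9, 21.7 and 20.3 CPM. In both classes every sham heart was above every I/R heart of either group. The differences between NS-I/R and NS-Sham were -2.46 ± 0.37 (adjusted p = 0.000558) in cardiomyocyte-like, -2.08 ± 0.29 (6.13e-05) in pericyte-like, and -1.73 ± 0.30 (0.000597) in fibroblast-like nuclei, by the adjusted edgeR test. They were -1.20 ± 0.30 (0.00679) in endothelial-like and -1.17 ± 0.31 (0.0358) in smooth muscle-like nuclei. The endothelial-like call was lost without NS-Sham replicate 2 (-0.84), and the smooth muscle-like one in 13 of 18 alternative fits at -1.05 to -1.34. In macrophage-like nuclei Dbp had 8.27, 18.7 and 18.6 CPM in NS-Sham and 6.98, 7.64 and 6.26 CPM in NS-I/R, a difference of -1.12 that did not pass. Sphk2, which overlaps Dbp on the opposite strand, differed by 0.14 in cardiomyocyte-like nuclei, which did not pass, and rose in macrophage-like nuclei (1.09).

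**Figure D2:**
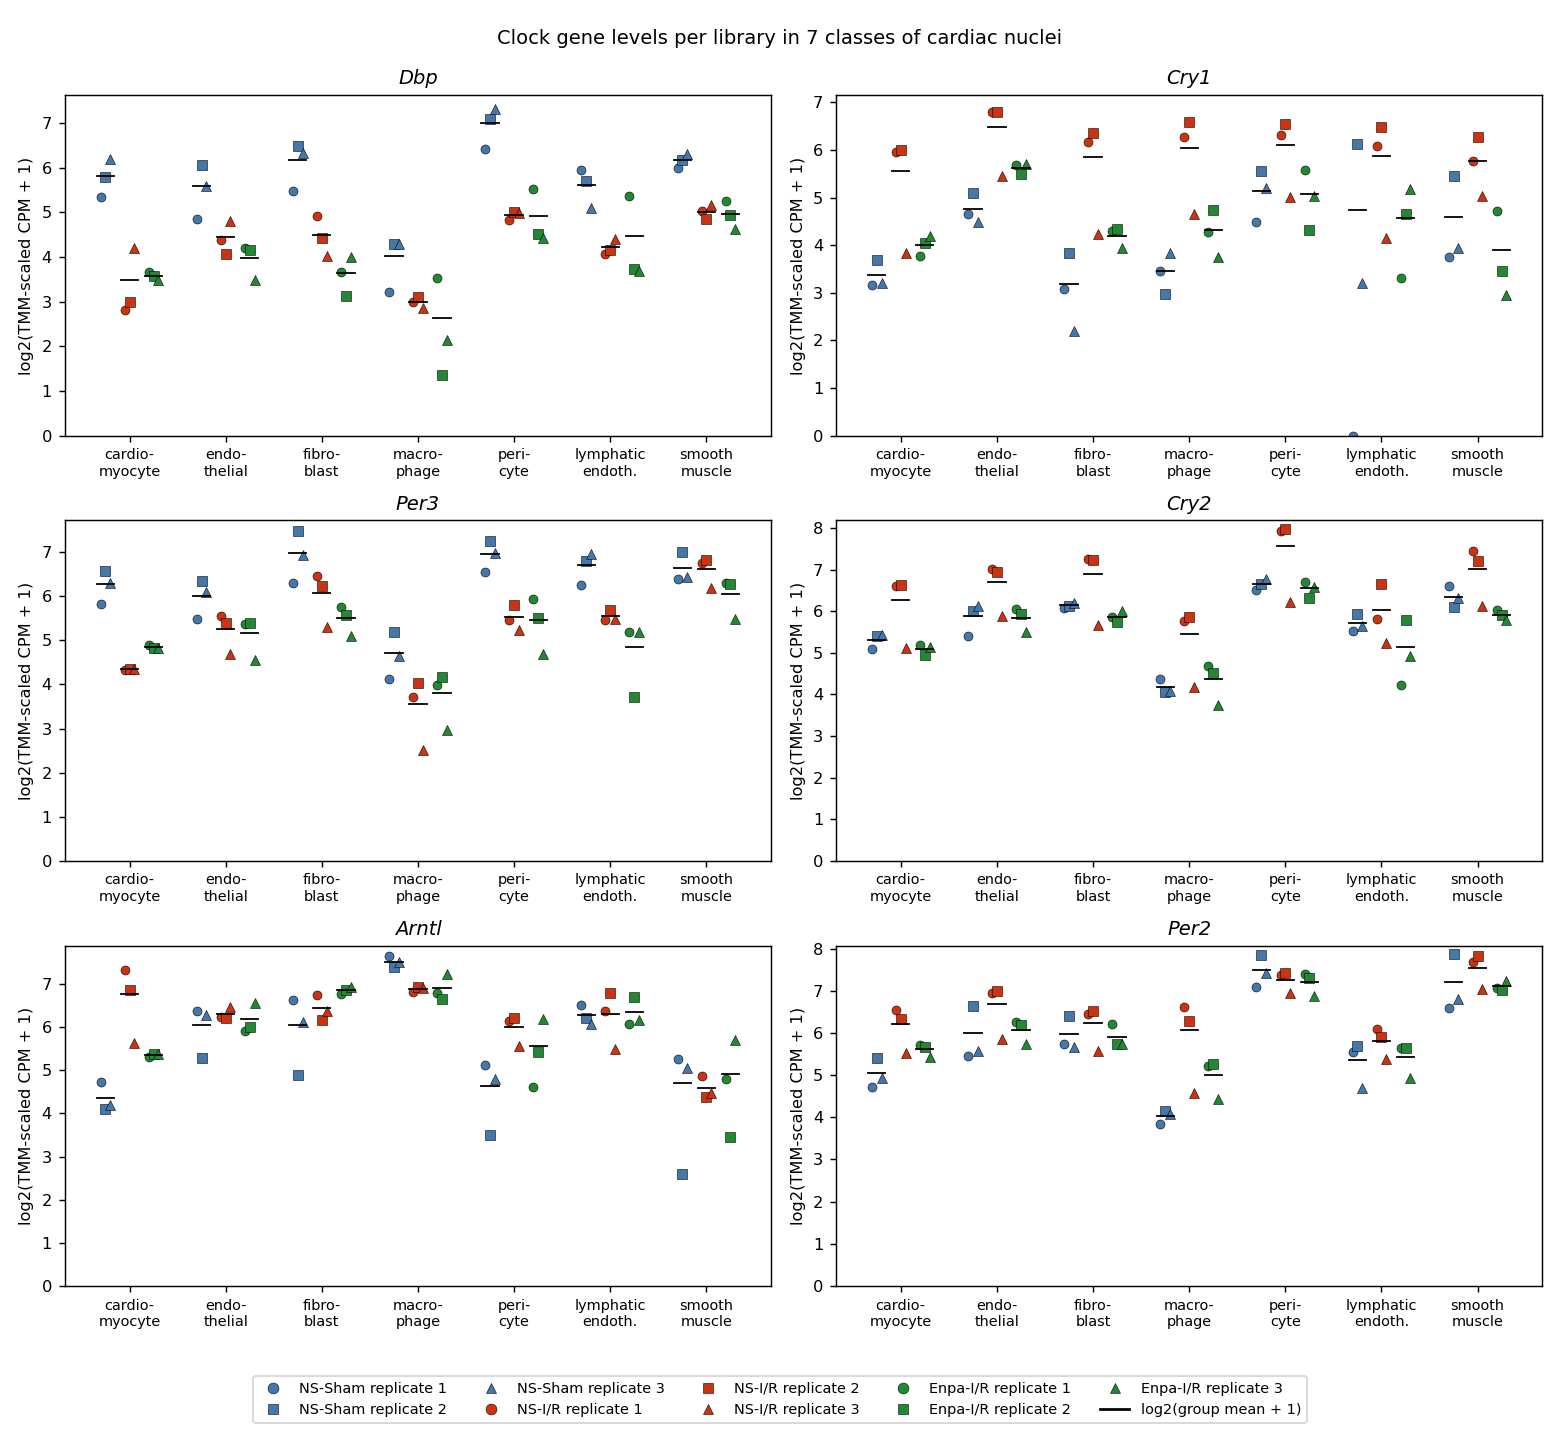
Level of 6 clock genes per library, as log2 of TMM-scaled CPM plus 1 (y axis), in 7 classes of nuclei (x axis); colours are the 3 groups, symbols the replicates, and bars the log2 of the group mean plus 1. Dbp and Per3 of the sham hearts lie above those of the I/R hearts in cardiomyocyte-like nuclei, while Cry1 and Cry2 of NS-I/R replicates 1 and 2 lie above replicate 3.

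Whether a gene's change was equal in all 7 classes was tested directly, as a class-by-group term within hearts. For NS-I/R minus NS-Sham the change differed between classes for 6 of the 10 members: Arntl (adjusted p = 2.52e-08), Per2 (2.51e-07), Per3 (3.49e-06), Clock (0.00118), Cry1 (0.00176) and Dbp (0.0139), by edgeR's quasi-likelihood F test over all 14047 genes. Of all genes, 37.8% passed that test. It was not passed by Npas2 (0.136), Per1 (0.148), Cry2 (0.479) and Nr1d1 (0.519). On simulated counts this test found 90% of genes changed 4-fold in cardiomyocyte-like nuclei alone and 9% of those changed 2-fold, so a moderate difference between classes could go unseen. Arntl was the member with tests passed in opposite directions.

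The composition of the classes moved with the groups, and class levels include this. Cluster 7 made up 93.3% of the fibroblast-like nuclei of NS-Sham but 31.3% of those of NS-I/R, where cluster 8, led by Tnc, made up 60.6%. Cluster 1 made up 77.2% of cardiomyocyte-like nuclei in the shams and 7.44% after I/R, where cluster 19, led by Xirp2, made up 49.4%. Cluster 11 went from 95.0% to 47.6% of macrophage-like nuclei, with the rest in cluster 13. Cluster 4 went from 61.7% to 12.2% of endothelial-like nuclei, and cluster 6 from 1.32% to 39.7%. Within the largest cluster shared by all hearts, the rises of Cry1 were of the same size as in the whole class, at 2.68 in cardiomyocyte-like cluster 3, 2.65 in fibroblast-like cluster 7 and 3.08 in macrophage-like cluster 11. Cry2 and Per1 passed within these clusters in cardiomyocyte-like (1.64 and 1.65), endothelial-like (1.26 and 1.00), fibroblast-like (1.15 and 1.00) and macrophage-like nuclei (1.37 and 1.08). The differences of Per3 in fibroblast-like cluster 7 (0.12 ± 0.31) and endothelial-like cluster 4 (0.07 ± 0.34) and of Arntl in macrophage-like cluster 11 (0.01 ± 0.20) did not pass and had the other sign than in the whole class. Dbp was lower by 0.68 in fibroblast-like cluster 7, by 1.02 in endothelial-like cluster 4 and by 1.64 in cardiomyocyte-like cluster 3 on the log2 scale, none of which passed. Arntl still rose in cardiomyocyte-like cluster 3 (2.72), where NS-Sham had 145 nuclei. The share of all genes called in these single-cluster fits is not given here, so the passes and failures are not set against it.

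Within a group, the same heart tended to be high or low for a clock gene in many classes at once. NS-I/R replicate 3 was the lowest of its group in all 7 classes for Per1, Per2, Cry1 and Cry2, and in 6 for Clock. It was lowest in 48 of 70 member-by-class pairs. Its median distance over the 7 classes from the mean of replicates 1 and 2 was -1.78 for Cry1, -1.51 for Cry2, -1.16 for Per1 and -0.91 for Per2, on the log2 scale. The distance was 0.21 for Dbp and 0.09 for Nr1d1. This heart also stood apart in other genes: of 8339 genes, it was lowest of its group in 6 or 7 classes for 14.95% and highest for 13.1%, against 1.12% to 3.85% for any of the other 8 hearts. Its library had 27397866 UMIs and 13.4% of barcodes over the mitochondrial limit, inside the range of the others. Its 551 neutrophil-like nuclei compare with 407 and 398 in replicates 1 and 2. What set this heart apart was not tested.

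Among the shams, NS-Sham replicate 2 was highest for Per2 in all 7 classes and for Per3 and Cry1 in 6, and lowest for Arntl in 6 and for Npas2 in 5. Its median distance from the other shams was 0.58 for Per2, 0.52 for Per3 and 0.67 for Cry1, and -1.03 for Arntl and -0.85 for Npas2. In fibroblast-like nuclei Arntl stood at 97.5, 28.5 and 69.0 CPM and Per3 at 78.1, 176.6 and 121.0 CPM in the shams, so these genes ran in opposite orders over the same hearts. NS-Sham replicate 1 was highest for Arntl in 7 classes and lowest for Per3 in 7, for Nr1d1 in 6 and for Dbp in 6. Distances of hearts within a group of 3 are partly opposite by construction. Of 8339 genes, NS-Sham replicate 2 was highest in 6 or 7 classes for 2.34% and lowest for 3.85%. Among the enpatoran-treated hearts, Enpa-I/R replicate 1 was highest for Dbp in 6 classes, Enpa-I/R replicate 2 was lowest for Per1 in 7, and Enpa-I/R replicate 3 was lowest for Per2 in 6.

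**Figure D3:**
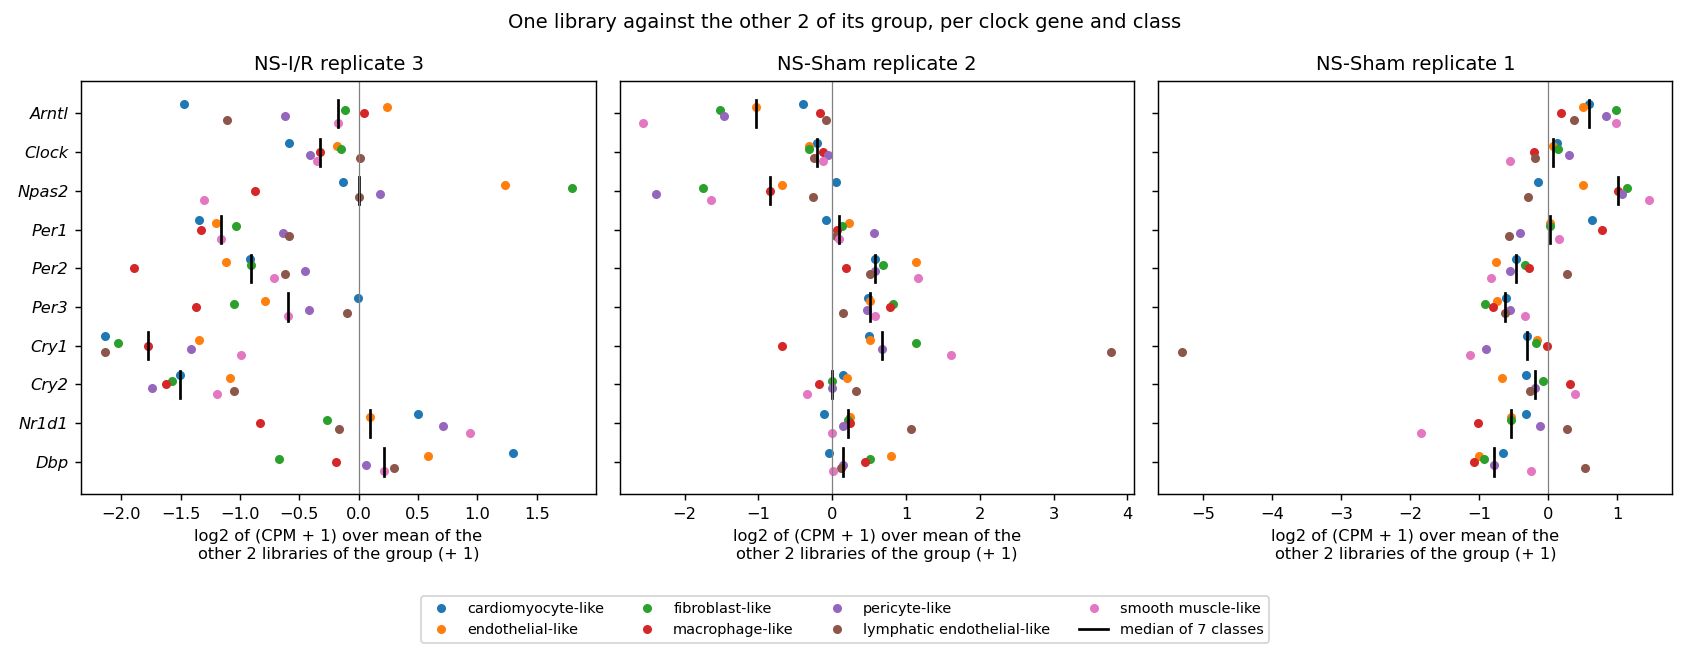
Distance of 1 heart from the mean of the other 2 of its group, as log2 of (CPM + 1) over that mean plus 1 (x axis), for each clock gene (y axis) and class (coloured points), with the median of 7 classes as a bar. In NS-I/R replicate 3 all classes lie below 0 for Cry1, Cry2, Per1 and Per2, and in the shams the medians of replicate 2 and replicate 1 lie on opposite sides of 0 for Arntl, Per2 and Per3.

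Enpatoran-treated I/R hearts had lower Cry1, Cry2, Per1 and Per2 than saline-treated I/R hearts in each of the 7 classes, but few of these differences passed. Between Enpa-I/R and NS-I/R 7 of 65 tests passed, all of them lower, against 8.67% of all gene tests (3.68% higher and 4.99% lower). This comparison shares the NS-I/R hearts with the one above. By class, 4 of 10 members fell in cardiomyocyte-like (18.7% of genes), 2 of 10 in fibroblast-like (9.79%) and 1 of 9 in macrophage-like nuclei (6.31%). None passed in endothelial-like (7.34%), pericyte-like (6.67%), lymphatic endothelial-like (1.09%) or smooth muscle-like nuclei (0.0%). There edgeR gave 2 of 10, 3 of 10, 1 of 7 and 3 of 9 members an unadjusted p under 0.05. Of all genes, 3135 of 11814, 2229 of 9334, 765 of 5526 and 760 of 6237 had an unadjusted p under 0.05 in these classes. DESeq2 called 2, 1, 0 and 0 members. Cry1 fell in cardiomyocyte-like nuclei (-1.60 ± 0.46, adjusted p = 0.0374), where it stood at 12.6, 15.5 and 17.3 CPM in Enpa-I/R, in fibroblast-like nuclei (-1.69 ± 0.47, 0.0434), where it stood at 18.7, 19.2 and 14.4 CPM, and in macrophage-like nuclei (-1.73 ± 0.41, 0.0197), where it stood at 18.4, 25.7 and 12.5 CPM. These levels lie near that of NS-I/R replicate 3 and below NS-I/R replicates 1 and 2. Arntl (-1.44 ± 0.35), Cry2 (-1.19 ± 0.33) and Clock (-0.57 ± 0.16) fell in cardiomyocyte-like and Nr1d1 (-0.59 ± 0.17) in fibroblast-like nuclei.

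Leaving out 1 I/R heart other than NS-I/R replicate 3 ended most or all of these calls, and most calls over all genes. The edgeR count was 0 when any one of NS-I/R replicates 1 and 2 and Enpa-I/R replicates 1 and 3 was left out, 1 test passed without Enpa-I/R replicate 2, and 30 passed without NS-I/R replicate 3, of which 28 were lower. Leaving out a sham, which changes the estimate of the spread and the genes tested, gave 4, 5 and 2 calls for NS-Sham replicates 1, 2 and 3. The share of all genes called fell too without an I/R heart other than NS-I/R replicate 3. It went from 18.7% to between 0.607% and 3.49% in cardiomyocyte-like and from 9.79% to between 0.0141% and 0.704% in fibroblast-like nuclei. NS-I/R replicate 3 was the lowest of its group for Cry1, Cry2, Per1 and Per2, so leaving it out lowers their differences by construction. Without NS-I/R replicate 3 the share of all genes called rose, from 18.7% to 43.8% in cardiomyocyte-like and from 9.79% to 38.6% in fibroblast-like nuclei. In that fit Cry1 was lower in 6 of 7 classes (-1.18 to -2.14 over all 7), Cry2 in 6 (-1.13 to -1.56), Per1 in 6 (-0.61 to -1.13) and Per2 in 4 (-0.18 to -1.45). Npas2 was higher in fibroblast-like nuclei (2.13), where its levels were 112.4, 106.2 and 90.9 CPM in Enpa-I/R and 23.1 and 24.3 CPM in the NS-I/R hearts that remained. Dbp then passed in opposite directions, higher in cardiomyocyte-like (0.74) and lower in fibroblast-like nuclei (-1.08). With all 9 hearts, the change differed between classes for Arntl (adjusted p = 0.00236) and Per3 (0.00668) by the class-by-group F test, which 10.5% of all genes passed. That count of 2 became 0 on leaving out NS-I/R replicate 1 or 2 and 6 on leaving out replicate 3. For Per3 the difference was 0.53 in cardiomyocyte-like and -0.58 in fibroblast-like nuclei of Enpa-I/R, neither passing alone.

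**Figure D4:**
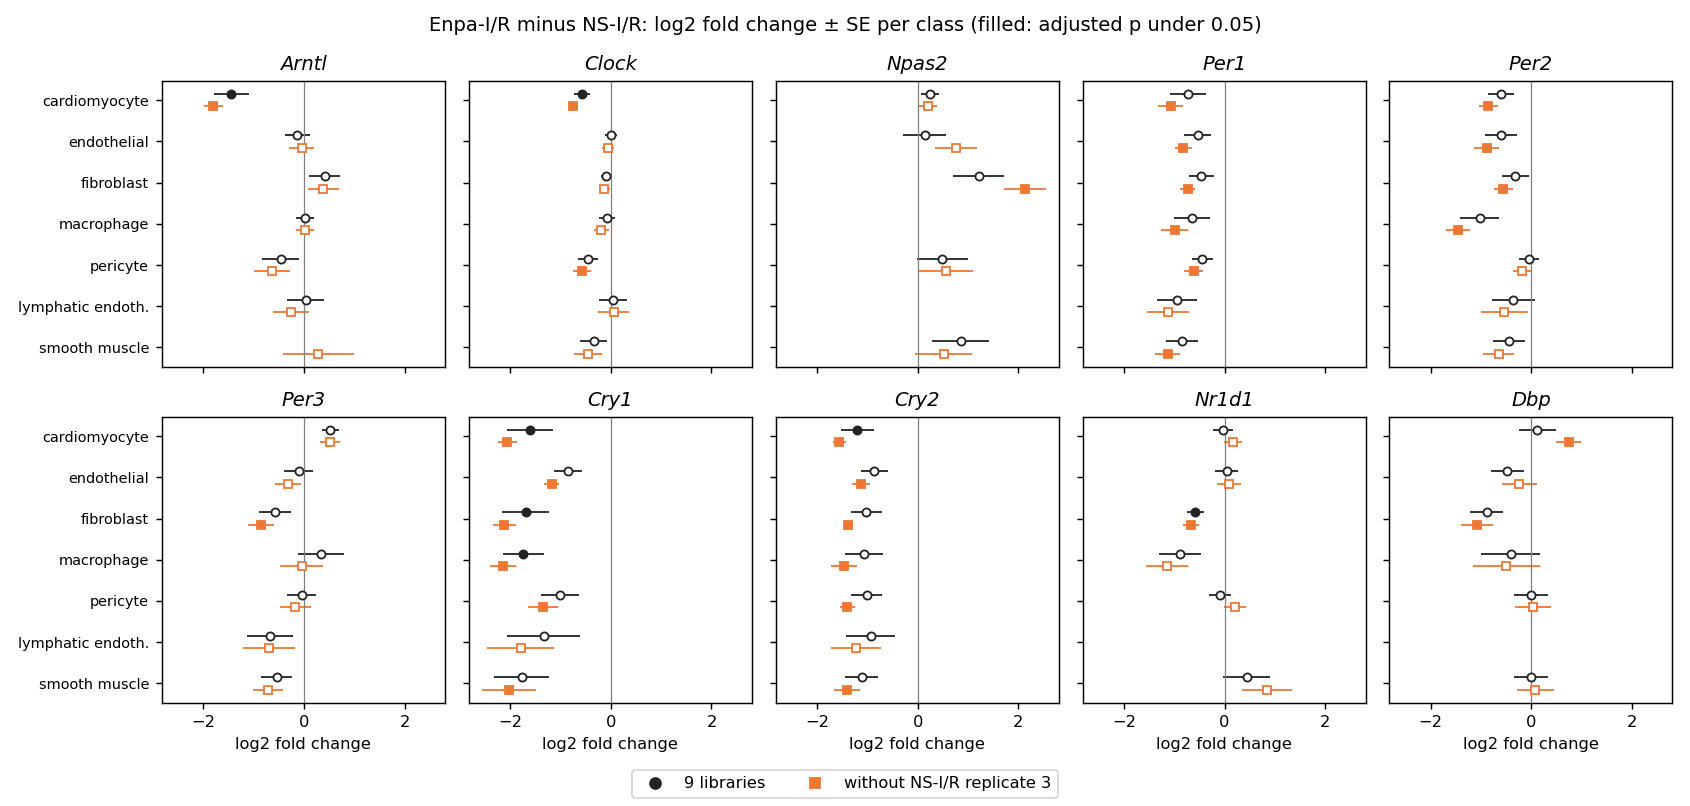
Log2 fold change (x axis) of each clock gene between Enpa-I/R and NS-I/R hearts, by class (y axis), with bars of 1 SE, from all 9 libraries (dark circles) and without NS-I/R replicate 3 (orange squares); filled symbols passed an adjusted p of 0.05 and a missing symbol means that the gene was not tested. Cry1, Cry2, Per1 and Per2 lie left of 0 in every class in both fits, and 7 symbols are filled with 9 libraries against 30 without that heart.

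Neutrophil-like nuclei were numerous in I/R hearts alone, so only the 6 I/R hearts were compared. None of 7 members tested passed the edgeR test there (1.53% of all genes did), and 2 had an unadjusted p under 0.05, as did 1175 of all 6594 genes. The Enpa-I/R sums were shallow, at 155305, 257446 and 64964 UMIs from 115, 157 and 58 nuclei. In NS-I/R they held 565611 to 1117441 UMIs. Levels of single genes in Enpa-I/R therefore rest on few UMIs. Per2 stood at 272.1, 270.3 and 65.7 CPM in NS-I/R and at 97.5, 33.7 and 0 CPM in Enpa-I/R. Cry1 stood at 124.8, 125.5 and 44.5 CPM in NS-I/R and at 48.8, 25.2 and 82.8 CPM in Enpa-I/R. In both genes NS-I/R replicate 3 was again the low one of its group.

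Compared with sham hearts, which also served as controls for NS-I/R, enpatoran-treated I/R hearts had 14 of 65 tests passed, 1 higher and 13 lower, where 13.7% of all gene tests passed, 7.08% higher and 6.58% lower. By class, 5 of 10 passed in cardiomyocyte-like (18.1% of genes), 3 of 10 in fibroblast-like (24.0%), 2 of 10 in each of endothelial-like (12.7%) and pericyte-like (5.27%). In turn, 1 of 9 passed in macrophage-like (17.4%), 1 of 7 in lymphatic endothelial-like (1.45%) and 0 of 9 in smooth muscle-like nuclei (0.208%). In the last class 1 member had an unadjusted p under 0.05, as did 680 of all 6237 genes, and DESeq2 called 0 members. Dbp was lower in 4 classes, by 2.62 in fibroblast-like, 2.34 in cardiomyocyte-like, 2.08 in pericyte-like and 1.68 in endothelial-like nuclei on the log2 scale. Per3 was lower in 5 classes, with differences of -0.88 to -1.84. Nr1d1 was lower in fibroblast-like (-1.56) and cardiomyocyte-like nuclei (-0.73), Npas2 in cardiomyocyte-like (-0.67) and Arntl in macrophage-like nuclei (-0.62). Clock was higher in cardiomyocyte-like nuclei (0.53). Cry1, Cry2, Per1 and Per2 passed the edgeR test in 0 of 7 classes each. At an unadjusted p under 0.05 and by DESeq2 the count was 1 for Cry1 and 0 for Cry2, Per1 and Per2. Cry1 was called higher in 3 classes and Per2 in 2 with only the 6 libraries compared, and likewise without NS-I/R replicate 3, and in 2 and 1 without the low-count filter. With the replicate block Cry1 was called higher in 1 class. For the fits with 6 libraries, without the filter or with the block, the share of all genes called is not given here. The count of 14 fell to 9 and 8 on leaving out NS-Sham replicate 2 and 3, and to 8 and 9 on leaving out Enpa-I/R replicate 2 and 3. It rose to 24 on leaving out NS-I/R replicate 3, then with 9 higher and 15 lower. The share of all genes called moved likewise. In cardiomyocyte-like nuclei it went from 18.1% to 9.98%, 9.88%, 12.1%, 10.8% and 29.5% in these 5 fits, in that order. In fibroblast-like nuclei it went from 24.0% to 15.4%, 16.9%, 16.0%, 16.0% and 34.6%.

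Other genes of the core loop were followed as a list of 18. In NS-I/R minus NS-Sham, 3 rose and 6 fell of 17 tested in cardiomyocyte-like nuclei (45.3% of all genes were called there), 4 rose and 6 fell of 16 in fibroblast-like (46.7%), and 3 rose and 5 fell of 15 in endothelial-like nuclei (35.2%). The list's median was -0.12, -0.19 and -0.28 there, against 0.01 for all genes in cardiomyocyte-like nuclei. Rora, whose product activates Arntl through the element that NR1D1 represses, fell in all 7 classes, by 1.07 to 2.01 on the log2 scale. Nr1d2, the close relative of Nr1d1, fell in 5 classes, and Hlf and Tef, relatives of Dbp, fell in 4 classes each, Hlf most in cardiomyocyte-like nuclei (-2.58). Nfil3, which encodes a repressor acting at the same D-box elements, rose in the 4 classes tested, from 1.23 in cardiomyocyte-like to 4.65 in macrophage-like nuclei. Bhlhe40, an E-box repressor, rose in all 6 classes tested, most in macrophage-like nuclei (3.80).

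Of 18 output genes, 5 rose and 8 fell in cardiomyocyte-like nuclei, where 23.6% of all genes rose and 21.6% fell. Kcnip2 and Kcnd2, which encode subunits of the transient outward potassium channel, fell there by 3.48 and 2.19 on the log2 scale, and Tspan4 rose by 2.96. Between Enpa-I/R and NS-I/R, 3 of the 18 were higher, 3 lower and 12 not called in the same class (median 0.06; 18.7% of all genes called). Kcnip2 was higher by 1.67, and Tspan4 (-1.90) and Pdk4 (-2.50), which restrains glucose oxidation, were lower. Without 1 I/R heart other than NS-I/R replicate 3, only 0.607% to 3.49% of all genes were called in this class. In other classes, between NS-I/R and NS-Sham, 7 output genes rose and 1 fell of 13 tested in macrophage-like nuclei (34.9% of all genes called), and 5 rose and 1 fell of 13 in pericyte-like nuclei (24.6%). Of 10 glucocorticoid-induced genes, 6 rose and 1 fell in cardiomyocyte-like nuclei (median 1.11; 45.3% of all genes called), with Cebpd at 2.57, Sgk1 at 1.92 and Pdk4 at 1.88. The one that fell, named after its value was seen, was Tsc22d3 (-1.37). In fibroblast-like nuclei 4 rose and 1 fell (median 0.09; 46.7% of all genes called). Of the same 10 genes, 6 rose in endothelial-like (median 0.93; 35.2%) and 6 in pericyte-like nuclei (1.05; 24.6%). In macrophage-like nuclei 6 rose and 1 fell (1.08; 34.9%). In smooth muscle-like nuclei 3 rose and 1 fell (0.96; 6.72%), and in lymphatic endothelial-like nuclei 3 rose (0.80; 13.8%). Of 8 immediate-early genes, 6 rose in cardiomyocyte-like nuclei (median 2.02; 45.3% of all genes called), among them Atf3 (3.32) and Egr1 (3.14). In pericyte-like nuclei 4 of 6 tested rose (median 1.97; 24.6%), and in macrophage-like nuclei 4 of 7 (1.02; 34.9%). In fibroblast-like nuclei 2 of 8 rose and 1 fell (0.55; 46.7%), and in lymphatic endothelial-like nuclei 1 of 3 rose (0.31; 13.8%). In endothelial-like nuclei 2 of 8 rose (median 0.26; 35.2%), and in smooth muscle-like nuclei 1 of 5 tested, Jun (-2.27), fell (median -0.90; 6.72%).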

How the data were processed

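Single-nucleus 3′ libraries of 9 hearts were deposited by the authors as matrices of raw UMI counts. Per the file headers they were made with Cell Ranger 8.0.0, while the submitters' processing notes name Cell Ranger 6.1.1, Seurat, GRCh38 and GRCm39. The reference at hand is GRCm38, so gene positions and promoters are of that build.

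Nuclei with at least 500 genes and at most 5% mitochondrial UMIs were kept, and the top 0.8% of Scrublet scores per 1000 barcodes were removed as doublets (133 to 538 per library). Clustering used 2000 variable genes without the clock and list genes, 30 principal components, 15 neighbours and Leiden resolution 1 (scanpy 1.11.5), giving 26 clusters. To be named, a cluster had to pass 3 markers and lead the next type by 0.5 (mean log2), thresholds chosen with the data known. Clusters 21 (441 nuclei in sham, 537 in saline I/R and 482 in enpatoran I/R hearts) and 25 (0, 425 and 9) were not named. A class was tested if each library had 25 or more of its nuclei.

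Sums of UMI counts by class and library were fitted with edgeR 4.0.16 (filterByExpr, TMM, quasi-likelihood test, 9 libraries per fit, Benjamini-Hochberg, threshold 0.05). Equality over classes was an F test with library as a term. On simulated counts, 1.5% (smooth muscle-like) to 52.5% (endothelial-like and fibroblast-like) of 200 genes changed 2-fold were called. The labels do not say that same-numbered hearts were handled together, so numbers were not used as pairs. Deviations of same-numbered hearts correlated at -0.23 to 0.20, and those of different-numbered hearts at -0.28 to 0.27. Between NS-Sham and NS-I/R the same-numbered range was -0.014 to 0.20. These ranges do not settle whether such hearts shared handling. The 10 members, the gene lists and the tests were chosen with earlier results of these data known, so no list here is independent evidence. All members are given in every class tested for NS-I/R minus NS-Sham, and by counts, ranges and calls for the other comparisons, short of the rule, which asked for every class throughout. Of other lists at most the 3 largest called changes per class and contrast are named, with genes followed over classes taken from them. The alternatives were DESeq2 1.42.0, other size factors, filters, cluster settings, a replicate block and each heart left out.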

Additional observations from a re-analysis of the deposited data

Results flagged for a closer look

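For 6 clock genes the change in NS-I/R minus NS-Sham was not equal over the 7 classes by the class-by-group F test: Arntl (adjusted p = 2.52e-08), Per2 (2.51e-07), Per3 (3.49e-06), Clock (0.00118), Cry1 (0.00176) and Dbp (0.0139). Arntl ran from -0.64 in macrophage-like to 2.47 in cardiomyocyte-like nuclei, and Per2 from -0.26 in pericyte-like to 2.07 in macrophage-like nuclei. Per3 ran from -1.98 in cardiomyocyte-like to -0.04 in smooth muscle-like nuclei, and Dbp from -2.46 to -1.12. Clock ran from 0.12 to 1.10 and Cry1 from 0.80 to 2.80. Between Enpa-I/R and NS-I/R the change differed between classes for Arntl (adjusted p = 0.00236; -1.44 to 0.41) and Per3 (0.00668; -0.67 to 0.53). No cause of these differences was tested.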

How the results depend on the processing

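For NS-I/R minus NS-Sham the 35 calls ranged from 21 to 42 when each heart was left out, and from 27 to 41 under the other settings. For Enpa-I/R minus NS-I/R the 7 calls ranged from 0 to 30 with a heart left out, and were 23 without the low-count filter, 1 with only the 6 libraries of the comparison, and 2 within the largest shared cluster. For Enpa-I/R minus NS-Sham the 14 calls ranged from 8 to 24 with a heart left out, and were 24 with 6 libraries and 7 within shared clusters. With the replicate number as a block the 3 counts were 31, 3 and 16, and the replicate block cannot be added to the class-by-group test, where the library is already a term. The members whose change differed between classes numbered 5 to 7 for NS-I/R minus NS-Sham with a heart left out, and for Enpa-I/R minus NS-I/R 0 to 6, and 8 with limma voom. For the class-by-group test under these alternatives, the share of all genes called is not given here. Nor is it given for the class fits under settings other than a heart left out. Those counts are therefore not set against it, and calls over all genes may have moved likewise. Within the largest shared cluster 3 called changes turned sign: Per3 in endothelial-like (0.0698) and fibroblast-like nuclei (0.12), and Arntl in macrophage-like nuclei (0.0057). Over all alternatives to single called changes, 782 values kept direction and call, 221 lost the call and 3 turned. The cause was not tested. Where 1 heart of a group was left out, 2 remained, and smooth muscle-like and lymphatic endothelial-like sums were the shallowest.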

Other observations

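Cluster 21, which had 1460 nuclei, was left unnamed because its endocardial markers led its endothelial ones by too little. Its changes of Cry1, Dbp and Per3 had the same direction as in endothelial-like nuclei (1.71, -1.20 and -0.78 there). In NS-I/R minus NS-Sham Cry1 was higher there (66.9 ± 31.5 against 28.9 ± 7.21 CPM, SD, n = 3; log2 difference 1.25) and Clock was higher (0.80), while Dbp (-1.21) and Per3 (-0.88) were lower, all with an edgeR adjusted p under the threshold that 10.6% of genes passed. Arntl stood at 43.4 ± 25.5 CPM in NS-I/R and 13.1 ± 7.94 CPM in NS-Sham and did not pass.

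Genes whose deviations from their class and group mean ran most like those of Dbp, over 27 values (9 hearts in cardiomyocyte-like, endothelial-like and fibroblast-like nuclei) and 4599 genes compared, were Nr1d1 (Pearson r = 0.80), Nr1d2 (0.73), Ccdc141 (0.70), Klf3 (0.70) and Klf13 (0.68). For Arntl they were Clock (0.80), Ybx1 (0.78), Tpm1 (0.76), Ubtf (0.75) and Myl12a (0.75). The 27 values share 9 libraries and their depth, so the coefficients are descriptions.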
